A study of Mus musculus with 18 samples.

Results

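The genes described here are 10 genes of the hormone-secreting cells of the stomach, out of 31201 gene names in the count tables of a single-cell RNA-seq study of adult mouse gastric units. They were chosen by name: the peptide hormones gastrin (*Gast*), somatostatin (*Sst*), ghrelin (*Ghrl*), cholecystokinin (*Cck*) and neurotensin (*Nts*), the amine-synthesizing enzymes *Hdc* (histamine) and *Tph1* (serotonin), the vesicular monoamine transporter *Slc18a2*, and the granule proteins chromogranin A (*Chga*) and chromogranin B (*Chgb*). Of the 10, 9 had a row in the table of dataset 1 and 8 in that of dataset 2. *Nts* had a row in neither table and *Cck* had none in dataset 2, and both were taken as 0 UMIs there. Their UMIs were read in every cluster of both datasets, and the clusters treated as endocrine were clusters 14, 16 and 17 of dataset 2 (113 of 3993 cells) and clusters 9 and 14 of dataset 1 (36 of 491 cells).

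Endocrine cells of the gastric mucosa lie scattered among the mucus, acid and pepsinogen secreting cells of the gastric units. G cells of the antrum release gastrin, which acts through its receptor on the enterochromaffin-like (ECL) cells of the corpus. ECL cells make histamine from histidine with *Hdc* and load it into vesicles with *Slc18a2*, and the histamine drives acid secretion by parietal cells. D cells release somatostatin, which restrains gastrin, histamine and acid, and X/A cells release ghrelin, an acylated peptide that stimulates feeding. Peptide hormones are cut from longer precursors inside dense-core granules, in which the chromogranins are major soluble proteins.

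All mice were 10-week-old male C57BL/6J wild-type animals without treatment. Dataset 1 was prepared from gastric units of corpus and antrum together (pools tube1 and tube2, 3 plates each) and sorted as ToPro3(-) cells by the labels, whereas the study's methods name PI as the dead cell stain. Dataset 2 was prepared from corpus gastric units only (pools K and T, 6 plates each) and sorted as Hoechst33342(+), ToPro3(-) cells. Each pool combined 3 mice, the pools of a dataset were prepared by different operators, and each plate held 384 wells, so that pool and operator cannot be told apart and plates of a pool are technical repeats of 1 suspension.

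Kept cells held 4489 to 161091 UMIs in dataset 1 (median 38757) and 4621 to 166610 in dataset 2 (median 31020). The endocrine clusters were shallower than the dataset as a whole: the median was 17920 UMIs per cell in cluster 14, 13453 in cluster 16 and 19553 in cluster 17 of dataset 2, and 16668 in cluster 9 and 6634.5 in cluster 14 of dataset 1. The same 384 well barcodes served every plate by design, so a barcode names a cell only together with its plate. Levels are given as CPM, the UMIs of a gene per 1000000 UMIs summed over the cells of a cluster and pool, with the mean and SD over the 2 pools, and single-cell values are UMIs per 10000 UMIs of the cell. Since the clusters were made from the same counts, cluster against cluster is a description without a test, and values at 0 and all intervals cover counting error only.

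The names of the clusters were checked against marker genes, some of which are members themselves, so only the other markers are independent of the choice of genes. In cluster 14 of dataset 2, the gastrin receptor *Cckbr*, an ECL marker, was at 447 CPM, against at most 22.9 in any cluster outside the endocrine ones, while the ECL marker *Lmx1a* had no UMI. Cluster 16 held the D cell transcription factors *Hhex* (696 CPM, absent from clusters 14 and 17) and *Isl1* (975, against 351 in cluster 17). Cluster 17 held the X/A markers *Irs4* (563, against 35.5 in cluster 16) and *Arg1* (119, against 62.0 in cluster 16). *Mboat4*, also listed for X/A cells, was no higher in cluster 17 (314 in pool K and 326 in pool T) than in cluster 14 (483 and 330). *Rbp4*, listed as a D marker, was higher in cluster 17 (2442) than in cluster 16 (501). The clusters are therefore called ECL-like (14), D-like (16) and X/A-like (17). Of the 6 listed enterochromaffin markers, *Tph1*, *Lmx1a* and *Trpa1* were at 0 UMIs in all 3 clusters and *Tac1* had 6 UMIs in 1 cell of cluster 16, while *Ddc* and *Slc18a1* were present in all 3. In dataset 1, cluster 9 was led by *Chga*, *Ghrl*, *Gast* and *Sst*. Cluster 14 of dataset 1 went against its endocrine label. Of its 12 cells, 8 had most of their marker UMIs in the tuft list, 2 in the mast cell list and 2 in the T cell list, its leading genes included *Mcpt1*, *Sh2d6*, *Mcpt2*, *Gzma* and *Dclk1*, and only 3 of the 12 carried an endocrine name in the earlier annotation of the authors. It is called by its number below.

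To show promoter sequence of members that hold a common neuroendocrine motif and of members that do not, the 150 bases before the RefSeq start (assembly GRCm38.p6) are printed for 5 of them, 1 hormone of G cells, 1 of D cells, the histamine enzyme and both chromogranins. Capitals mark the cyclic AMP response element TGACGTCA or, where only that is present, its shorter form TGACG, a binding sequence of CREB family factors found in many neuroendocrine promoters. The windows lie at chr11:100334257-100334406 on the plus strand (*Gast*), chr16:23890845-23890994 on the minus strand (*Sst*), chr2:126618679-126618828 on the minus strand (*Hdc*), chr12:102554791-102554940 on the plus strand (*Chga*) and chr2:132781492-132781641 on the plus strand (*Chgb*), each 5′ to 3′ on the strand of the gene:
Gast: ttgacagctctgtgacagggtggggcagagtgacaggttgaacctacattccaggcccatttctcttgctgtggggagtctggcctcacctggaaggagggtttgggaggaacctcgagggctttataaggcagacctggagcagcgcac
Sst: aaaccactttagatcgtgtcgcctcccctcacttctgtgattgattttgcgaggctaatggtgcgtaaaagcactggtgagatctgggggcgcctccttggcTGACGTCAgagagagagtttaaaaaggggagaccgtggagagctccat
Hdc: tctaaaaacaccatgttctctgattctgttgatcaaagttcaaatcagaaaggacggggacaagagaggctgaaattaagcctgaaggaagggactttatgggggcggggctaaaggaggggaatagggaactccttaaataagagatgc
Chga: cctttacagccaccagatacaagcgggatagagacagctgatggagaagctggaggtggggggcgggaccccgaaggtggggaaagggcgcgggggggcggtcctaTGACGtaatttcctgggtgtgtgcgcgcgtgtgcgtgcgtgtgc
Chgb: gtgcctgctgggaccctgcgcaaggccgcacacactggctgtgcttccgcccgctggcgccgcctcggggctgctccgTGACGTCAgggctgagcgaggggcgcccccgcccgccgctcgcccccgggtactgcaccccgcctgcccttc
In RefSeq windows from 250 bases before to 50 bases after the start, searched on both strands, 3 of the 10 members (*Sst*, *Chgb* and *Slc18a2*) held TGACGTCA, against 588 of 32851 windows of all genes (1.79%). TGACG, which also lies inside TGACGTCA, was found in 7 of the 10 members and in 20.8% of all windows. The members had 14 windows in all, since *Ghrl* had 4 starts and *Tph1* had 2. *Gast*, *Hdc* and *Ghrl* held neither motif. These are matches of letters, and binding was not measured.

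*Sst* and *Ghrl* dominated the RNA of the cells that made them (the plot of levels by cluster). In the D-like cluster 16, *Sst* stood at 164672 CPM in pool K and 182379 in pool T (mean 173526 ± 12521, SD, n = 2 pools), which was 17.4% of the UMIs of the cluster. In the ECL-like cluster it stood at 22.2 and 19.4, and in the X/A-like cluster at 13.5 and 46.1. Both were within the span of the 17 clusters outside the endocrine ones, where *Sst* ran from 3.68 to 36.0 in pool K and from 7.91 to 48.9 in pool T. Per cell of cluster 16, *Sst* ran from 0 to 2806 with a median of 2079 per 10000. The gene lies at chr16:23707321-23711733 on the minus strand (GRCm39) and codes for the precursor of somatostatin.

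**Figure D1:**
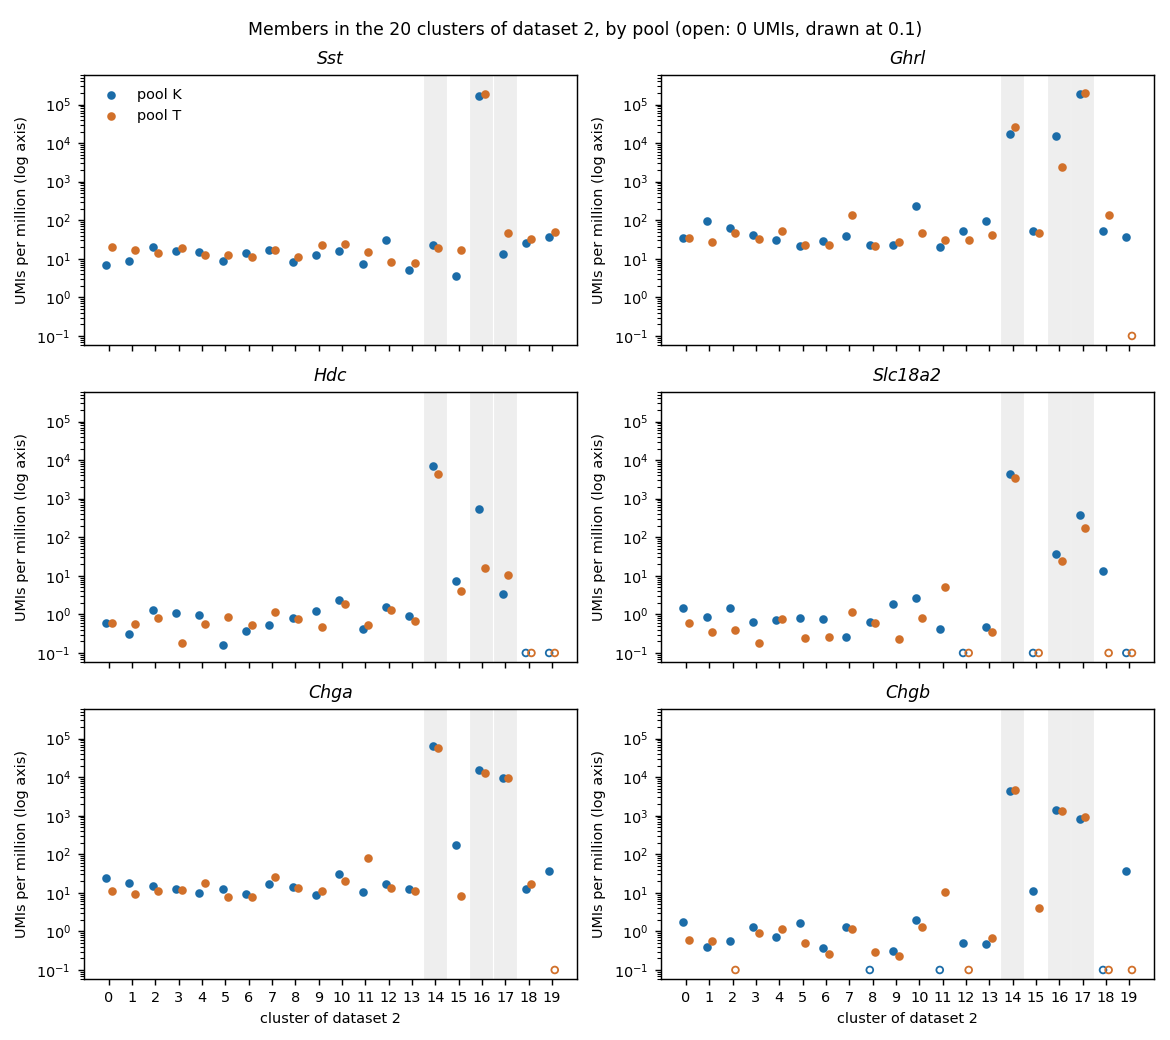
Level of 6 members in each of the 20 clusters of dataset 2 (x axis, cluster number), in CPM (UMIs per 1000000 UMIs) on a log axis, with 1 point for each pool (K blue, T orange) and the endocrine clusters shaded. *Sst* rises above 100000 only in cluster 16 and *Ghrl* only in cluster 17, whereas *Chga* and *Chgb* are higher in clusters 14, 16 and 17 than in any other.

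*Ghrl* was higher in both pools of all 3 endocrine clusters of the corpus than in any cluster outside them. Its level in the X/A-like cluster 17 was 193132 CPM in pool K and 205172 in pool T (199152 ± 8514), and it made up 19.9% of the UMIs of the cluster. In the ECL-like cluster 14 it was 17201 and 25896 (21548 ± 6148), and in the D-like cluster 16 it was 15340 and 2383 (8862 ± 9162). Clusters 17 and 14 did not overlap in their pools, with 11.2 times the level in cluster 17 in pool K and 7.92 times in pool T. Pool K of cluster 16 rested on 1 cell: without it, the level fell to 4305, and the mean of the cluster was 3344 ± 1359. The gene, on chr6:113693080-113696844 of the minus strand (GRCm39), is overlapped by *Gm26982* and *Gm44033* on the opposite strand, and whether reads were counted by strand is not given in the sources used here.

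The X/A-like cells were uniform for *Ghrl*, and the ECL-like and D-like cells were not. All 29 cells of cluster 17 held between 1524 and 2508 *Ghrl* UMIs per 10000 (coefficient of variation 0.138). In the 53 cells of cluster 14 the value ran from 0 to 943 with a median of 101 (coefficient of variation 1.19). Of these 53 cells, 4 were below 1 per 10000, 7 were from 1 to 10, 15 from 10 to 100 and 27 from 100 to 1000. No cell of cluster 14 reached 1000, so the distribution of cluster 14 lay wholly below that of cluster 17. In cluster 16 the median was 5.23 and the highest cell reached 1192 per 10000.

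Of the 31 D-like cells, 13 held both *Sst* and *Ghrl* at 10 or more UMIs per 10000, the level taken as high (the plot of single cells of dataset 2). They came from both pools (8 from K, 5 from T) and from 9 plates. They carried 9 to 1812 *Ghrl* UMIs (median 85), against 0 to 9 (median 3) in the other 18 cells of the cluster, and 844 to 3708 *Sst* UMIs. Their total UMIs were 5745 to 15745 (median 12796), against 8598 to 20641 (median 13656.5) in the others. No caller of doublets was run, and the part of wells with 2 cells or of free RNA in these values was not tested. At a limit of 50 per 10000, 7 such cells were counted.

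**Figure D2:**
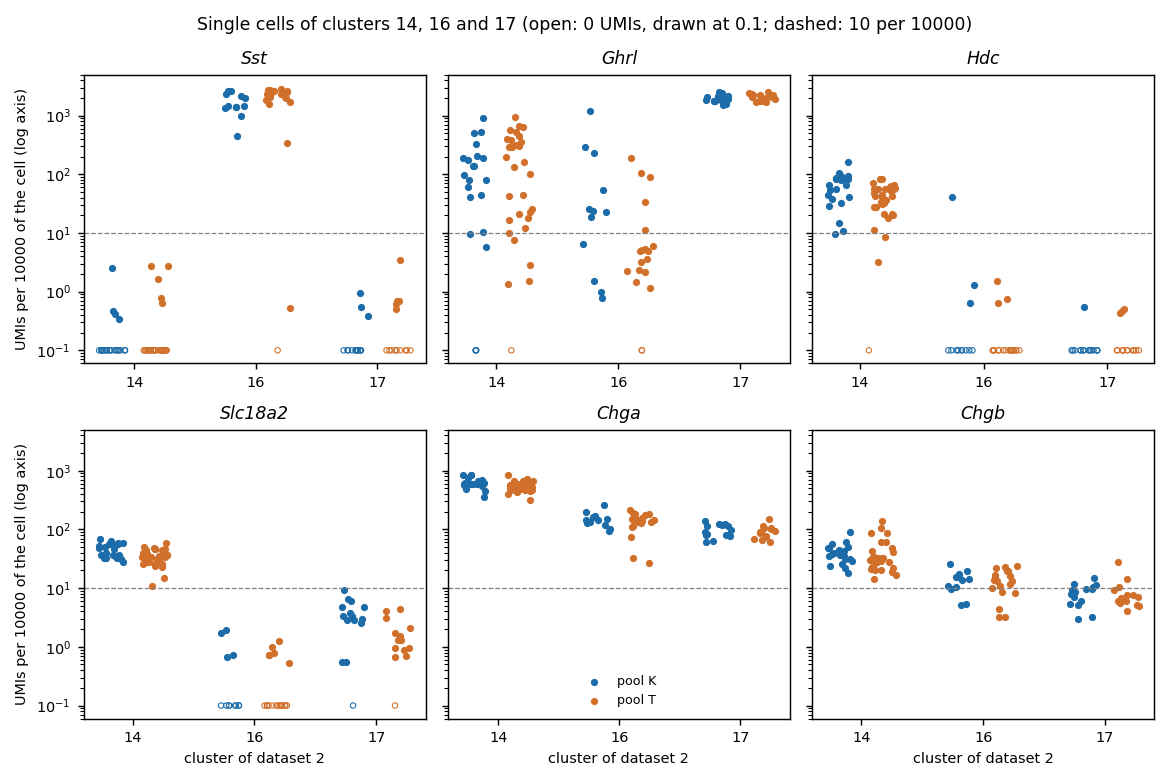
Members in single cells of the ECL-like (14), D-like (16) and X/A-like (17) clusters of dataset 2, in UMIs per 10000 UMIs of the cell on a log axis, with points for cells of pool K (blue) and pool T (orange), open points at 0 UMIs and a dashed line at 10 per 10000. *Ghrl* runs from 0 to 943 in cluster 14 and from 0 to 1192 in cluster 16 and is confined to 1524 to 2508 in cluster 17, while *Hdc* and *Slc18a2* exceed 10 in nearly all cells of cluster 14.

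*Gast* and *Cck*, close relatives whose products share their active carboxyl end, were absent from the corpus endocrine cells at this depth. *Gast* had 14 UMIs in all of dataset 2, in 14 cells outside the endocrine clusters, and 0 in clusters 14, 16 and 17. A count of 0 allows up to 6.65 CPM in pool K and 5.30 in pool T of cluster 14. *Nts*, which codes for a peptide of the distal gut, had no UMI in any cell of either dataset. *Gast* lies at chr11:100218410-100227823 on the plus strand, *Cck* at chr9:121315695-121324863 and *Nts* at chr10:102317614-102326396, both on the minus strand (GRCm39).

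The histamine genes *Hdc* and *Slc18a2* were highest in the ECL-like cluster. *Hdc* (chr2:126435558-126461318, minus strand) stood at 7020 CPM in pool K and 4466 in pool T of cluster 14 (5743 ± 1807). It stood at 3.38 and 10.6 in cluster 17 and at 550 and 15.8 in cluster 16, and without 1 cell the pool K value of cluster 16 was 21.8. Without that cell, the pools of clusters 16 and 17 lay within 3.38 to 21.8, against up to 7.35 in a cluster outside the endocrine ones. Per cell, *Hdc* in cluster 14 ran from 0 to 159.2 per 10000 with a median of 48.8, and 49 of 53 cells were high.

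*Slc18a2*, which carries histamine, serotonin and other amines into vesicles, followed another order than *Hdc* below the ECL-like cluster. Its levels were 4348 and 3529 CPM in pools K and T of cluster 14 (3939 ± 579), 375 and 170 in cluster 17 (272 ± 145) and 37.9 and 23.6 in cluster 16. The 3 clusters did not overlap in their pools, and cluster 14 was above cluster 17 by 11.6 times in K and 20.7 times in T. All 53 ECL-like cells were high for *Slc18a2*, with 10.98 to 68.2 per 10000. In cluster 17 no cell was high, although 27 of 29 cells held at least 1 UMI. The gene lies at chr19:59249238-59284695 on the plus strand and is overlapped by *Pdzd8* on the opposite strand.

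*Tph1*, the first enzyme of serotonin synthesis outside the brain (chr7:46294065-46321965, minus strand), was not detected in any endocrine cluster of the corpus. Dataset 2 held 5 *Tph1* UMIs in kept cells, in 4 cells outside the endocrine clusters. In dataset 1, 57 UMIs were found in 4 kept cells, and 53 of them lay in 1 cell of cluster 14 on plate 31 that carried 1585 UMIs of the mast cell markers and 7 of *Slc18a2*. The other cell of that cluster with *Tph1* (plate 23, 2 UMIs) also held all 17 *Hdc* UMIs of cluster 14, 12 of *Slc18a2* and 367 of the mast cell markers. Cluster 9 of dataset 1 held no *Tph1*.

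*Chga* and *Chgb* were shared by the ECL-like, D-like and X/A-like clusters of the corpus, and both genes fell in that order. *Chga* (chr12:102520484-102531300, plus strand) was at 62412 and 56983 CPM in pools K and T of the ECL-like cluster (59698 ± 3839), at 15460 and 12996 in the D-like cluster (14228 ± 1742) and at 9695 and 9346 in the X/A-like cluster (9521 ± 247). *Chgb* (chr2:132622464-132637904, plus strand) was at 4264 and 4656 (4460 ± 277), at 1415 and 1316 (1366 ± 70.3) and at 834 and 953 (894 ± 84.6) in the same order. For both genes the lower pool of each cluster was above the higher pool of the next. The ECL-like level of *Chga* was 4.04 times the D-like level in K and 4.38 times in T, and that of *Chgb* 3.01 and 3.54 times. Per cell, *Chga* in cluster 14 was narrowly spread (315 to 843 per 10000, coefficient of variation 0.195), whereas *Chgb* ran from 14.4 to 141 (0.586).

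Within the ECL-like cluster, *Ghrl* was weakly correlated with the histamine genes from cell to cell. Over its 53 cells, which share plates and differ in depth, Pearson's r of *Ghrl* with *Hdc* was 0.09 (Spearman's rho 0.22) with *Slc18a2* it was -0.02 (0.03) and with *Chga* it was -0.01 (0.07). *Hdc* with *Slc18a2* gave 0.10 (0.13) and *Hdc* with *Chga* 0.32 (0.30). In cluster 17, *Chga* with *Chgb* gave 0.38 (0.57) over 29 cells. These weak values in sparse counts are given as a description. Of the 53 ECL-like cells, 40 were high for *Hdc* and *Ghrl* together.

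A few cells were below the high level for the hormone or enzyme of their cluster. These cells were picked with their values known. In cluster 16, 1 cell of plate PID00162 with 18851 UMIs had 1 *Sst* UMI, 61 of *Chga* and 19 of *Insm1*, a transcription factor of endocrine development. Another of plate PID00165 with 15358 UMIs had no *Sst* UMI, 112 of *Chga* and 39 of *Isl1*. In cluster 14, 4 cells had *Hdc* below 10 per 10000 (0 to 9 UMIs), and each held 27 to 83 *Slc18a2* UMIs and 476 to 1395 of *Chga*. In isthmus cluster 11, 1 cell of plate PID00159 with 52628 UMIs held 274 UMIs of *Chga*, 36 of *Chgb*, 18 of *Slc18a2* and 21 of *Insm1*, with 3 of *Ghrl* and none of *Sst* or *Hdc*.

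In dataset 1, which included the antrum, cluster 9 held 4 kinds of hormone profile (the map of single cells of dataset 1). Of its 24 cells, 5 were high for *Gast*, 3 for *Sst*, 10 for *Hdc* and another 5 for *Ghrl* without these, and 1 was high for none of the 4. The *Gast*-high cells held 388 to 3240 *Gast* UMIs, 6 to 134 of *Chgb*, no *Hdc* and no *Slc18a2*. *Chga* in them was 0 to 16 UMIs, at most 10.4 per 10000, against 23.2 to 115 in the *Sst*-high, 65.1 to 111 in the *Ghrl*-high and 431 to 785 in the *Hdc*-high cells. The *Gast*-high cells thus had the lowest *Chga* of the cluster with no overlap, while their *Chgb* (2.04 to 71.5 per 10000) overlapped that of each other kind.

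**Figure D3:**
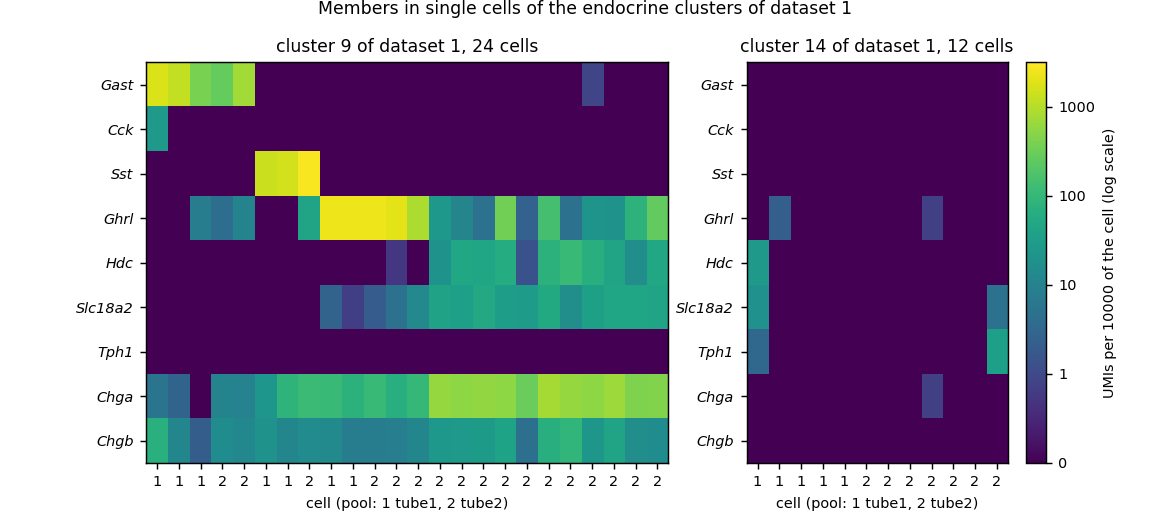
UMIs of 9 members per 10000 UMIs of the cell (colour, log scale) in each cell of clusters 9 and 14 of dataset 1, with cells as columns labelled by pool and genes as rows. In cluster 9, *Gast*, *Sst* and very high *Ghrl* fall in separate cells and *Hdc* goes with *Slc18a2* and *Chga*, whereas most cells of cluster 14 are empty for all 9 genes.

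The *Hdc*-high cells of cluster 9 resembled the ECL-like cells of dataset 2 in their members. They held 21 to 240 UMIs of *Hdc*, 37 to 122 of *Slc18a2*, 654 to 1740 of *Chga* and 8 to 919 of *Ghrl*, and all 10 came from tube2. The 5 *Ghrl*-high cells held 1717 to 4992 *Ghrl* UMIs and 133 to 226 of *Chga*. No cell was high for *Gast* and *Sst* together, and 2 cells were high for 2 of the 3 peptide hormones, 1 for *Gast* and *Ghrl* (10.2 per 10000 of *Ghrl*) and 1 for *Sst* and *Ghrl* (42.3). *Cck* had 53 UMIs in kept cells, and 48 of them lay in 1 *Gast*-high cell of plate 23 with 18746 UMIs and 3240 of *Gast*.

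Summed over cluster 9, with 7 cells in tube1 and 17 in tube2, the 2 pools lay far apart for most members and less so for *Ghrl* and *Chgb*. *Gast* was at 50758 CPM in tube1 and 5296 in tube2, and without its highest cell the tube1 value was 28710. *Sst* was at 31916 and 9525, *Ghrl* at 65863 and 44230 and *Chgb* at 1893 and 2831. *Hdc* was at 0 and 3418, *Slc18a2* at 40.8 and 2712 and *Chga* at 3852 and 38638. Cluster 14 held no UMI of *Gast*, *Sst*, *Chgb* or *Cck*, 2 of *Ghrl* and 1 of *Chga*, at a floor of 54.5 CPM in tube1 and 46.1 in tube2.

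The genes that were higher in both pools of an endocrine cluster than in either pool of every cluster outside the endocrine ones were then counted. Of all genes with at least 20 UMIs, 8.48% met this for cluster 14 of dataset 2, 7.05% for cluster 16 and 6.63% for cluster 17. Of the 6 members with that many UMIs, 5 met it for cluster 14, 6 for cluster 16 and 4 for cluster 17. In dataset 1, 6 of 9 members met it for cluster 9, against 4.78% of all genes, and 2 of 9 for cluster 14, against 4.14%. Members and lists were picked as endocrine genes, so these counts describe the clusters and are not independent evidence.

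Genes of peptide processing and granules accompanied the members in all 3 corpus clusters, with different levels of the convertases (the plot of granule genes). Of 24 such genes, 20 met the count for cluster 14, 22 for cluster 16 and 22 for cluster 17. The prohormone convertase *Pcsk1* was at 891, 218 and 683 CPM in clusters 14, 16 and 17, against at most 6.48 elsewhere. *Pcsk2*, the other main prohormone convertase, was at 4.42, 2959 and 85.5, and *Pcsk1n*, whose product inhibits PCSK1, was at 52.2, 3708 and 1442. The D-like cluster was thus the highest of the 3 for *Pcsk2* and the lowest for *Pcsk1*, and the ECL-like cluster the reverse.

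**Figure D4:**
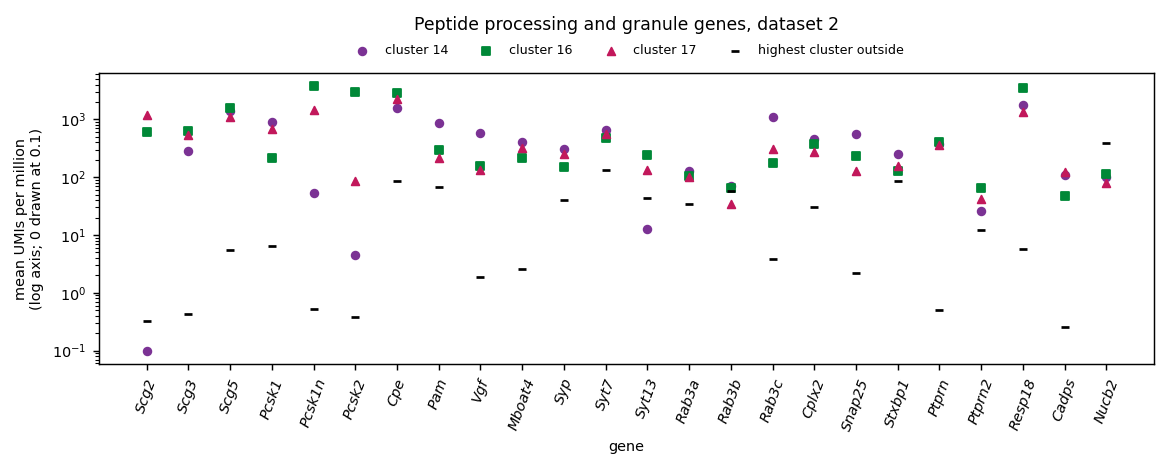
Mean level over the 2 pools, in CPM (UMIs per 1000000 UMIs) on a log axis, of 24 genes of peptide processing and granules (x axis) in clusters 14, 16 and 17 of dataset 2, with a dash for the highest cluster outside the endocrine ones. *Pcsk2*, *Pcsk1n* and *Scg2* are lowest in cluster 14, and *Nucb2* is the gene whose dash, for the chief cluster, lies above all 3 endocrine clusters.

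Other granule genes also differed between the clusters, but in no common order. The granin *Scg2* had no UMI in the ECL-like cluster and stood at 612 in the D-like and 1188 in the X/A-like cluster. The amidating enzyme *Pam* (862, 299 and 211) and the granin *Vgf* (575, 158.9 and 133) were highest in cluster 14, as were the vesicle genes *Rab3c* (1076, 179 and 303) and *Snap25* (552, 230 and 129.5). *Mboat4*, the acyltransferase that activates ghrelin, was at 407, 215 and 320. It was thus no higher in the X/A-like than in the ECL-like cluster, although *Ghrl* itself was. CPM are shares of UMIs, so *Ghrl* at 199152 CPM in the X/A-like cluster lowers the CPM of every other gene there. *Nucb2* met the count in none of the 3, with 394 in chief cluster 10.

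Of the 9 monoamine genes with enough UMIs, 6, 3 and 5 met the count in clusters 14, 16 and 17. *Ddc*, which decarboxylates aromatic amino acids, was at 683, 618 and 474, against at most 10.1 elsewhere. *Slc18a1*, the other vesicular monoamine transporter, was at 58.9, 8.29 and 12.1. Of 9 other gut hormones, 2, 3 and 1 met the count, among them *Agt*, the precursor of angiotensin, at 2216 in the ECL-like cluster and *Pyy* at 132 and *Iapp* at 58.3 in the D-like cluster. In cluster 9 of dataset 1, 22 of 24 granule genes, 5 of 11 monoamine genes and 0 of 7 other hormones met it, and *Pyy* was at 6316 in tube1 and 0 in tube2.

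The receptors that read these hormones lay partly in the endocrine and partly in the acid and pepsinogen secreting cells. Of 5 receptor genes with enough UMIs, 3 met the count for cluster 14 and 1 each for clusters 16 and 17. *Cckbr* was at 447, 2.0 and 0 in clusters 14, 16 and 17 and at 22.9 in parietal cluster 1. *Sstr2*, a somatostatin receptor, was at 113, 0 and 3.46, and at 69.7 in cluster 1. The histamine receptor *Hrh2* was at 131 in cluster 1, against 1.11, 0 and 3.46 in the endocrine clusters, and *Cckar* was at 560 in chief cluster 10 and at 67.7, 0 and 3.38. Of 11 genes in a list of luminal and nutrient sensors, ion channels and other receptors, 7, 6 and 7 met the count. The fatty acid receptor *Ffar4* was at 82.2, 35.5 and 189 and met it in none, with 83.0 in cluster 18, and the potassium channel subunit *Abcc8* at 68.8, 349 and 149.

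The genes whose levels followed each member most closely over clusters were found by Pearson's r of log2(level + 1). In dataset 2 (20 clusters, 15453 genes) they were *Pyy*, *Pax6* and *Syt4* for *Sst* (0.98, 0.98 and 0.97), *Cpeb1*, *Ly6h* and *Mapk10* for *Ghrl* (0.98 each), and *Corin*, *Insrr* and *Slc38a11* for *Hdc* (0.98 each). *Snap25*, *Scn8a* and *Sv2a* followed *Chga* (1.00, 0.99 and 0.99), *Chga*, *Snap25* and *Cplx2* followed *Chgb* (0.98, 0.97 and 0.97), and *Kcnip2*, *Mc4r* and *Gabrq* followed *Slc18a2* (0.97, 0.97 and 0.96). In dataset 1 (15 clusters, 12459 genes) *Gc*, *Insm1* and *Pla2g2f* followed *Gast* (0.99 each). *Gc* was also a leading gene of the ECL-like cluster 14 of dataset 2, where *Gast* had 0 UMIs. Cluster 9 of dataset 1 joined cells high for *Gast*, *Sst*, *Ghrl* or *Hdc*. Pearson's r over clusters therefore cannot tell which of its cells held *Gc*, *Insm1* and *Pla2g2f*. The mast cell protease genes *Tpsab1* and *Cma1*, with *Gm19817*, followed *Tph1* (1.00 each), and *Vwa5b2*, *Uchl1* and *Npas4* followed *Cck* (1.00, 1.00 and 0.99), mostly through 1 cell. *Nts* gave no value.

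Outside the endocrine clusters the members were found at low levels, which differed between clusters. Of the UMIs of each gene in dataset 2, 97.4% of *Sst*, 95.8% of *Ghrl*, 98.3% of *Hdc*, 97.1% of *Chga*, 97.7% of *Chgb* and 97.4% of *Slc18a2* lay in the 113 endocrine cells. In the 17 other clusters the median level was 40.2 (K) and 32.7 (T) CPM for *Ghrl*, 14.3 and 16.6 for *Sst*, 14.3 and 11.3 for *Chga* and below 1 for *Hdc*, *Chgb* and *Slc18a2*. Of the 3880 cells there, 47.6% held a *Ghrl* UMI, 24.05% an *Sst* UMI and 29.1% a *Chga* UMI at a median depth of 31486 UMIs. Of 702 parietal cells, 51.6% held a *Ghrl* UMI at a median of 47647 UMIs. Thinned to 10000 UMIs per cell, the *Ghrl* share was 22.5% in the 3834 remaining cells outside and 19.4% in 701 parietal cells, and the source of these UMIs was not tested.

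Single cells made the highest values outside. In chief cluster 10 the pool K level of *Ghrl* was 228 and fell to 64.7 without 1 cell with 427 UMIs, and in parietal cluster 1 it was 96.7 and fell to 24.1 without 1 cell of plate PID00170 with 938 UMIs. For *Chga*, cluster 15 was at 173 in pool K and 22.8 without 1 cell, and cluster 11 at 80.5 in pool T and 9.25 without the plate PID00159 cell described above. In all, 14 of 3880 cells were high for *Ghrl*, 3 for *Sst*, 3 for *Chga* and 0 for the other members. In dataset 1, 0 of 455 cells outside were high for any member.

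The pools of mice were then compared on plate sums by edgeR's quasi-likelihood test, in which p-values measure the spread between plates, and in such sums fewer cells and less RNA per cell cannot be told apart. Over all kept cells of dataset 2 (6 plates a pool), 14.0% of 13309 genes differed between K and T, and 0 of the 6 members tested did (at an unadjusted p under 0.05 also 0). *Sst* ran from 140 to 571 CPM over the K plates (median 429) and from 6.45 to 1269 over the T plates (median 635), and *Ghrl* from 184 to 1749 (median 1156) and from 145 to 2156 (median 974). The ranges overlapped widely. The log2 difference, K minus T, was -0.73 ± 0.63 (SE, edgeR adjusted p = 0.475) for *Sst* and 0.04 ± 0.55 (edgeR adjusted p = 0.967) for *Ghrl*. For *Hdc*, *Chga*, *Chgb* and *Slc18a2* the differences lay between -0.31 and 0.47 with SEs of 0.32 to 0.48 (edgeR adjusted p 0.554 to 0.916).

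No difference in the share of kept cells in endocrine clusters was detected between the pools. It was 2.50% ± 0.541 per plate in K and 3.11% ± 1.11 in T (SD, n = 6 plates), a difference of -0.612 percentage points (exact permutation test, two-sided, p = 0.279, adjusted over 4 tests 0.577, smallest possible p 0.00216). By cluster the shares were 1.12% and 1.505% for cluster 14, 0.614% and 0.924% for cluster 16 and 0.766% and 0.686% for cluster 17. In cluster 9 of dataset 1 it was 3.24% ± 2.82 in tube1 and 6.12% ± 1.98 in tube2 (n = 3 plates, exact permutation p = 0.3, adjusted over 3 tests 0.45, where 3 against 3 plates cannot go below 0.1). Together with cluster 14, whose cells went against the label, it was 5.33% ± 3.69 and 8.75% ± 3.33 (exact permutation p = 0.3).

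Within the ECL-like cluster, *Hdc* was not called between the pools, although its plates did not overlap (the plot of cluster 14 by plate). It was at 7626, 7317, 5882, 6417 and 6570 CPM on K plates PID00166, PID00167, PID00168, PID00170 and PID00171, and at 3505, 4674, 5084, 4427 and 4364 on T plates PID00159 and PID00162 to PID00165. Every K plate was above every T plate. The share of all genes without overlap was not counted, so this order is only a description of 1 of the 5 members tested. Plates PID00158 and PID00169, with 0 and 1 cell of the cluster, were left out. The log2 difference was 0.60 ± 0.14, with an unadjusted p of 0.000629 and an adjusted p of 0.131 in edgeR over 1845 genes, so it was not called. Its adjusted p ran from 0.0114 to 0.332 over 13 alternatives and passed the threshold in 1 of them, DESeq2. In this comparison 0 of 1845 genes were called by edgeR (151 at an unadjusted p under 0.05), and DESeq2 called 1 of 15302.

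**Figure D5:**
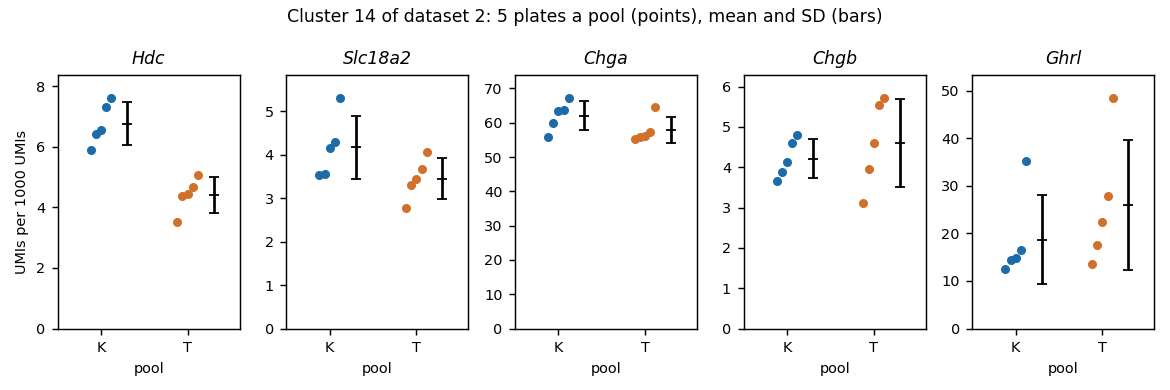
Levels of 5 members in cluster 14 of dataset 2, in UMIs per 1000 UMIs summed per plate (y axis from 0), with 1 point for each of 5 plates in pools K (blue) and T (orange) and a bar for the mean ± SD. For *Hdc* the lowest K plate (5882 CPM) lies above the highest T plate (5084 CPM), and for the other genes the pools overlap. The share of all genes without overlap was not counted.

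The other members of the ECL-like cluster overlapped between the pools. *Slc18a2* ran from 3526 to 5307 in K (median 4147) and from 2774 to 4055 in T (median 3436), a log2 difference of 0.25 ± 0.16 (edgeR adjusted p = 0.719). *Ghrl* ran from 12414 to 35313 (median 14748) and from 13595 to 48550 (median 22373), a difference of -0.52 ± 0.33 (edgeR adjusted p = 0.719). *Chga* (0.08 ± 0.14) and *Chgb* (-0.15 ± 0.17) had edgeR adjusted p-values of 0.947 and 0.893.

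In dataset 1, the genes of the *Hdc*-high cells were compared between plates of tube1 and tube2, and of *Hdc*, *Slc18a2* and *Chga* only *Hdc* was called. *Hdc* was at 4.40, 0 and 0 CPM on the tube1 plates and at 70.2, 143 and 104 on the tube2 plates. *Slc18a2* was at 4.66, 0.354 and 0 against 58.0, 74.8 and 120, and *Chga* at 88.5, 46.3 and 0 against 867, 1321 and 1356. The share of all genes whose plates did not overlap between the pools was not counted, so no result is read from the order of the plates. All 3 genes were high in the same *Hdc*-high cells of cluster 9, so they are not independent. On plate 23, all 17 *Hdc* UMIs and 12 of the 18 *Slc18a2* UMIs lay in 1 cell of cluster 14. That cell held 367 UMIs of the mast cell markers. The log2 differences, tube1 minus tube2, were -5.77 ± 0.66 for *Hdc* (edgeR adjusted p = 0.0477), -5.29 ± 0.64 for *Slc18a2* (0.0529) and -4.62 ± 1.06 for *Chga* (0.146), so *Hdc* was called, in a comparison in which 0.0762% of 11809 genes were. The *Hdc* call held in 4 of 10 settings, the one reported included, with adjusted p-values of 2.40e-07 to 0.187 in edgeR and DESeq2, and was lost by library size alone (0.05003), without plate 23 (0.0862) or plate 25 (0.0759) of tube1 and without plate 29 (0.0582), 30 (0.182) or 31 (0.187) of tube2. *Slc18a2* was called in 2 of 10 settings (DESeq2 and no filter) and *Chga* in 2 (no filter and without plate 25). All 10 *Hdc*-high cells of cluster 9 were in tube2.

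The peptide hormones of dataset 1 rested on few cells per plate and overlapped between pools. *Gast* was at 840, 1056 and 0.392 on the tube1 plates and at 0, 0 and 552 on the tube2 plates (log2 difference 1.86 ± 2.21, edgeR adjusted p = 0.724). *Sst* (0.41 ± 2.17) and *Ghrl* (-0.85 ± 1.69) had edgeR adjusted p-values of 0.953 and 0.847, and *Chgb* (-1.90 ± 0.85) one of 0.305. *Tph1* and *Cck* had too few UMIs to enter the fit.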

How the data were processed

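Endocrine genes were read in 18 Quartz-Seq2 libraries (384-well plates, 3′ UMI counts), 6 in dataset 1 and 12 in dataset 2. The authors demultiplexed reads (bcl2fastq 2.20.0.422), aligned them with STAR to GRCm39 with a Gencode annotation, counted UMIs with Drop-seq tools, dropped cells under a minimum of detected genes (kept cells had at least 2501) and clustered them with Seurat; the deposited count tables hold raw UMI counts per gene and well. The deposited metadata also give mitochondrial percent per cell, made by the authors and not used here. Gene positions are from a later Gencode annotation of GRCm39.

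Here, counts were joined to the deposited clusters by well, and totals agreed for 491 of 491 and 3993 of 3993 kept cells, with every single count equal for 491 and 3989. UMIs were summed per cluster and pool. A high cell had 10 or more UMIs of a gene per 10000. Members, lists and rules were chosen with earlier results of these data known. The members were all named, and the genes most like each were the 3 with the highest Pearson correlation over clusters among genes with at least 50 UMIs; genes of the lists were named for their levels. Plate sums were tested with edgeR 4.0.16 (TMM, quasi-likelihood, two-sided, Benjamini-Hochberg over all genes, threshold 0.05) and shares by exact permutation (scipy 1.17.1), after tests on simulated data. DESeq2 1.42.0, other filters, scalings and thresholds, and leaving out each plate were alternatives. The precision is set by 19906729 UMIs in dataset 1 and 139611402 in dataset 2. The 3 mice of a pool cannot be told apart, so p-values measure only the spread between plates, which is technical.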

Additional observations from a re-analysis of the deposited data

Results flagged for a closer look

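In cells outside the endocrine clusters, *Chgb* on plate PID00159 of pool T was at 3.46 CPM, far from the other 5 plates of the pool (0.258 to 1.09), and this plate holds the cluster 11 cell with 36 *Chgb* UMIs. The share of kept cells in endocrine clusters was 5.20% on plate PID00162 of pool T, against 1.86% to 3.08% on the other plates of the pool. Of 28 groups of 6 plates examined for such a distant plate, 2 had one, and chance gives about 1 in 20.

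Wells that did not pass the cell filter of the clusterings used here hold UMIs of the members that no comparison here uses. For non-major cell types the paper set a lower minimum of detected genes, which some of these wells would pass. In dataset 1 (1813 wells, 3016503 UMIs) *Gast* was at 12.9 CPM of these UMIs, *Sst* at 18.6, *Ghrl* at 785, *Hdc* at 1.33, *Tph1* at 11.3, *Chga* at 33.8, *Chgb* at 10.9 and *Slc18a2* at 2.98. Of the 2368 *Ghrl* UMIs behind the highest of these values, 2156 lay in 1 well of plate 29. In dataset 2 (615 wells, 1654145 UMIs) *Sst* was at 88.3 CPM, *Ghrl* at 303, *Hdc* at 4.84, *Tph1* at 22.4, *Chga* at 102, *Chgb* at 4.84 and *Slc18a2* at 11.5.

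*Tph1* was thus more abundant in the wells not kept of dataset 2 (37 UMIs in 5 wells) than in its kept cells (5 UMIs). The 5 wells held 1 to 15 *Tph1* UMIs and 26 to 253 UMIs of mast cell markers. The 34 *Tph1* UMIs of dataset 1 lay in 1 well of plate 29 with 205 UMIs of mast cell markers, 6 of *Slc18a2* and none of *Chga*.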

How the results depend on the processing

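No paired analysis was possible because the plates of the pools compared share no replicate numbers. Of the recomputed levels, 15 moved by more than the SD of the pools and 11 of those came from TMM scaling, which put *Sst* in cluster 16 at 139813 and *Ghrl* in cluster 17 at 177191 CPM. At a limit of 50 per 10000, 26 ECL-like cells were *Hdc*-high, 7 D-like cells were high for *Sst* and *Ghrl*, and 4 cells outside were *Ghrl*-high, against 34 at a limit of 5. The count of listed genes highest in cluster 14 of dataset 1 was 5, and 3 with a 4-fold margin or with at least 100 UMIs. With a 4-fold margin the genes of the list of sensors, channels and other receptors fell from 7 to 3 in cluster 14 of dataset 2. In cluster 9 of dataset 1 the monoamine genes then fell from 5 to 3. Its other hormones and hormone receptors went from 0 to 2 and from 0 to 1. With at least 100 UMIs the other hormones of clusters 14, 16 and 17 of dataset 2 were 1, 0 and 0 in place of 2, 3 and 1, the receptors of clusters 16 and 17 were 0 in place of 1, the monoamine genes of cluster 9 were 3, and the members of cluster 14 of dataset 1 were 1 in place of 2.

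The count of genes called between K and T over all kept cells (1860) ran from 1163, without plate PID00169 of K, to 1989 when plates were left out in turn. Within cluster 14 it was 0, and 1 with DESeq2, 50 with no filter and 0 to 2 without a plate (2 without plate PID00168, 1 without plate PID00164). Between tube1 and tube2 it was 9, and 336 with DESeq2, 605 with no filter, 6 by library size alone and 0 to 52 without a plate (52 without plate 24, 4 without 25, 1 without 30, 0 without 23, 29 or 31). The causes were not tested. Of 218 alternative tests of members, 193 kept direction and call, 6 lost the call, 5 gained it and 14 turned the sign of a difference that was called in neither setting. All 14 left out 1 plate, and the log2 difference then ran from -0.19 to 0.40 for *Ghrl*, from -0.26 to 0.22 for *Chga* and from -0.10 to 0.61 for *Slc18a2* between K and T over all kept cells, and from -0.63 to 9.96 for *Sst* between tube1 and tube2, so these members have no stable direction. Depth limits the members at 0: in cluster 16 a count of 0 allows up to 19.0 CPM in K and 11.8 in T, and in cluster 17 up to 10.1 and 10.6.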
